A study of Mus musculus with 6 samples.

Results

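The MHC class I presentation machinery was described in dendritic cells with and without the neutrophil surface protein Ly6G. The members were the genes of 10 listed proteins: the class I heavy chains H2-K1 and H2-D1, the light chain B2m, the peptide transporter subunits Tap1 and Tap2, the loading factor Tapbp, the inducible proteasome subunits Psmb8 and Psmb9, and the proteasome activator subunits Psme1 and Psme2. A member was every probe set whose platform annotation held exactly 1 gene symbol, and that symbol was a listed gene. This gave 26 of 45037 probe sets on the array, for 9 of the 10 genes. H2-D1 had the most of them, followed by H2-K1 and Tap1. Psme2 had 0 probe sets of its own, because the 1 probe set that carries its name also carries another gene, and it was not analysed here.

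Expression was measured on 6 Affymetrix Mouse Genome 430 2.0 arrays, 1 per sample, with 3 samples of Ly6G+ DC and 3 of Ly6G- DC. Both groups came from bone marrow of C57BL/6 mice, grown for 6 days with 10 ng/ml of GM-CSF, a growth factor that drives dendritic cells in culture, and no other treatment or allele was named. Ly6G+ DC were sorted as CD11c+, MHC class II+ and Ly6G+ cells, and Ly6G- DC as CD11c+, MHC class II+ and Ly6G- cells from the same cultures. Nothing in the labels says whether samples of a group came from different cultures or mice, so a p-value here reflects only sample-to-sample spread, which could be technical.

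Class I molecules show peptides from inside the cell to CD8+ T cells. The proteasome cuts cytosolic proteins, the TAP transporter moves the peptides into the endoplasmic reticulum, and tapasin holds the transporter and an empty heavy chain with its light chain together until a peptide is bound. Nearly all cells carry class I, and interferon gamma raises most of these genes at once, including catalytic proteasome subunits that replace the constitutive ones in newly built particles. Dendritic cells also load class I with peptides from engulfed proteins, which is called cross-presentation.

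Promoter sequences are shown because the heavy chain genes share most letters of a stretch and Tap1 and Psmb9 are read from a common promoter. They come from RefSeq (GRCm38.p6), which held promoter windows for 9 of the 10 genes. Windows ran from before to shortly after each start, 6 of them on chromosome 17, where the MHC lies. In the first 3 stretches capitals mark a match to a kB motif, the kind of site NF-kB binds (GGGNNTTCC, or GGGNNTTTC in B2m), or to an interferon-response motif (TTTCNCTTC, or GAAANTGAA in B2m). In the fourth stretch they mark a GC box (GGGCGG). Matches were sought on both strands. The H2-K1 stretch lies at chr17:34000359-34000498 on the minus strand, the H2-D1 stretch at chr17:35262883-35263022 on the plus strand, and the B2m stretch at chr2:122147537-122147686 on the plus strand. The fourth stretch is the whole interval between the Psmb9 start and the Tap1 start, chr17:34187331-34187555, written on the Tap1 strand.
H2-K1: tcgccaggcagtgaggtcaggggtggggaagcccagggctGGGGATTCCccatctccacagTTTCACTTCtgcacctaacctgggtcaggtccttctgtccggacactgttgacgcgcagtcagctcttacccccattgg
H2-D1: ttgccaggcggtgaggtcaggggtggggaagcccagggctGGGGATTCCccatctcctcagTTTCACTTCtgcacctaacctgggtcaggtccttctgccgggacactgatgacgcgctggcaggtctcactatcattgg
B2m: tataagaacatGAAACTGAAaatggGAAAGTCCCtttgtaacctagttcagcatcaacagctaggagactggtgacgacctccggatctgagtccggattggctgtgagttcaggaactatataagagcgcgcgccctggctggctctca
Tap1 and Psmb9: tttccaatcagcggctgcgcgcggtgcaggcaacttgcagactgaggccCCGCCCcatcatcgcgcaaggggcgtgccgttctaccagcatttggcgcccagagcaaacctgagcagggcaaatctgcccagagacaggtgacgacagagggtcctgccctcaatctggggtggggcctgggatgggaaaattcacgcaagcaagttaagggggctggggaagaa

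The H2-K1 and H2-D1 stretches were each cut around the gene's own kB match, so they were lined up on that motif. They run from -151 to -12 and from -211 to -72 relative to the starts. Placed side by side without gaps, they had the same base at 127 of 140 positions, and the rest of the windows was not compared. In both, the kB motif and the interferon motif lay at the same distance from each other. The interval between Psmb9 and Tap1 measured 225 bases, and their starts point away from each other. Shares were taken over all 32851 promoter windows, each whole and longer than the stretches printed here. GGGNNTTCC was found in 5.82%, GGGNNTTTC in 4.36%, TTTCNCTTC in 2.44%, GAAANTGAA in 2.21% and GGGCGG in 35.7%. In Psme1, TTTCNCTTC was found after the start. A match is a description of the letters and not of a bound site.

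The sort and the arrays were checked first. Ly6g itself was not named in the annotation used here, so the sort marker was not checked. Neutrophil markers were higher in Ly6G+ DC without any overlap between groups in 15 of 15 probe sets. That was true of 4.49% of all probe sets that passed the filter. The filter asks for signal above the 40th percentile on at least 3 of 6 arrays. Cd177, Cxcr2 and Lrg1 passed it on Ly6G+ arrays alone. Camp, Padi4 and Stfa2l1 passed it on those arrays and, among Ly6G- arrays, on number 2 alone. The place of these genes in that count lends no support. Summed signals of the neutrophil markers were 85811 to 109943 in Ly6G+ DC and 11131 to 27224 in Ly6G- DC. Dendritic cell markers and sort genes had a median log2 fold change of -0.75, and 9 of 19 probe sets were lower without overlap, against 7.24% of all. Flt3, among the 9, passed the filter on the Ly6G- arrays and, among Ly6G+ arrays, on number 3 alone, so its place lends no support. Summed signals of this list were 70682 to 141991 in Ly6G+ DC, against 114305 to 259004 in Ly6G- DC. These sums divided by the hybridization controls described next and not by group, at 141991 to 259004 on high-control arrays and 70682 to 114305 on low-control arrays. H2-Aa, an MHC class II chain, entered that sum by its brightest probe set. There it had a log2 difference of 2.08 ± 0.25 (SE) for high-control minus low-control arrays. The other probe sets of H2-Aa ran from 0.05 to 2.24, and those of H2-Ab1, another class II chain, from -1.76 to 0.04. Monocyte and macrophage markers summed to 35888 to 42255 in Ly6G+ DC and 23513 to 48697 in Ly6G- DC. Of 16 probe sets, 5 were higher without overlap, against 4.49% of all. The 5 belonged to Ccr2, Fn1, Plac8 and Vcan, and other kept probe sets of Ccr2, Fn1 and Vcan overlapped. Those of Csf1r, Adgre1, Mertk and Mrc1 all overlapped. Lymphocyte markers summed to 681 to 1028 in Ly6G+ DC, against 1207 to 1762 in Ly6G- DC. Most of that sum was Klrd1 alone, with 363, 617 and 646 in Ly6G+ DC, while Ly6G- DC had 759, 1247 and 945. Of the 5 kept lymphocyte probe sets, 2 were lower without overlap (Klrd1 and Ms4a1), against 7.24% of all, and 5 are too few to read a share from. Those of Cd247, Cd79a and Cd79b overlapped. Ms4a1 was dim, at 72.9 to 176, and its other probe set lay below the 40th percentile on all 6 arrays. No marker was listed at 0, while Cd3e and Nkg7, of T and NK cells, lay below the 40th percentile on all 6 arrays. The part of these cells in the class I values was not tested, and in bulk samples fewer cells of a type and less RNA per cell cannot be told apart. Spiked hybridization controls, bacterial transcripts added to the labelled RNA, had a geometric mean signal of 1366, 5570 and 1643 on Ly6G+ arrays 1 to 3 and 1255, 9890 and 10441 on Ly6G- arrays 1 to 3. Ly6G+ DC 2, Ly6G- DC 2 and Ly6G- DC 3 are called the high-control arrays below, and the other 3 the low-control arrays. On the high-control arrays the Actb probe sets gave a 3' to 5' ratio of 3.98 to 6.85, against 1.17 to 1.49 on the low-control arrays.

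No class I gene passed the test between Ly6G+ DC and Ly6G- DC. Signals were compared as log2(signal + 16), a scale that understates the change of dim genes, and fold changes are given on that scale. Of the 26 member probe sets, 22 lay above the 40th percentile of their array on at least 3 of the 6 arrays and entered limma's test over 28254 probe sets. Of the 22, 0 passed an adjusted p of 0.05 (smallest 0.836 by limma), as did 0% of all probe sets (smallest 0.165). At an unadjusted p under 0.05 there were 0 of 22, against 5.62% of all probe sets. Log2 fold changes ran from -0.66 to 0.89 with a median of -0.13, beside a median of -0.06 over all probe sets. Of the 22, 14 were negative, against 55% of all, so the members stood near the background. These counts are of probe sets and not of genes, since H2-K1 supplied 4 of the 22 and H2-D1 8. By the brightest probe set of each gene, 5 of 9 were negative, with a median of -0.08. With arrays scaled to a common median, 4 of 22 were negative and the member median was 0.20, but that scaling moved the median of all probe sets by 0.30 to 0.23. Relative to all probe sets the member median was -0.07 as deposited and -0.04 with the common median, and with the control side as a block it was -0.33 (-0.35 for the members, with 17 of 22 negative). The brightest probe set of each gene had a median of -0.27 with that block. The negative share of all probe sets was not counted with the common median or the block. In that fit 0 of 22 had an unadjusted p under 0.05, against 6.63% of all, and 0 passed after adjustment. Of the 22 intervals of 95%, 4 lay inside a 2-fold change in either direction, as did 20.5% of all, so for most probe sets a change of that size is not excluded by these arrays.

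**Figure D1:**
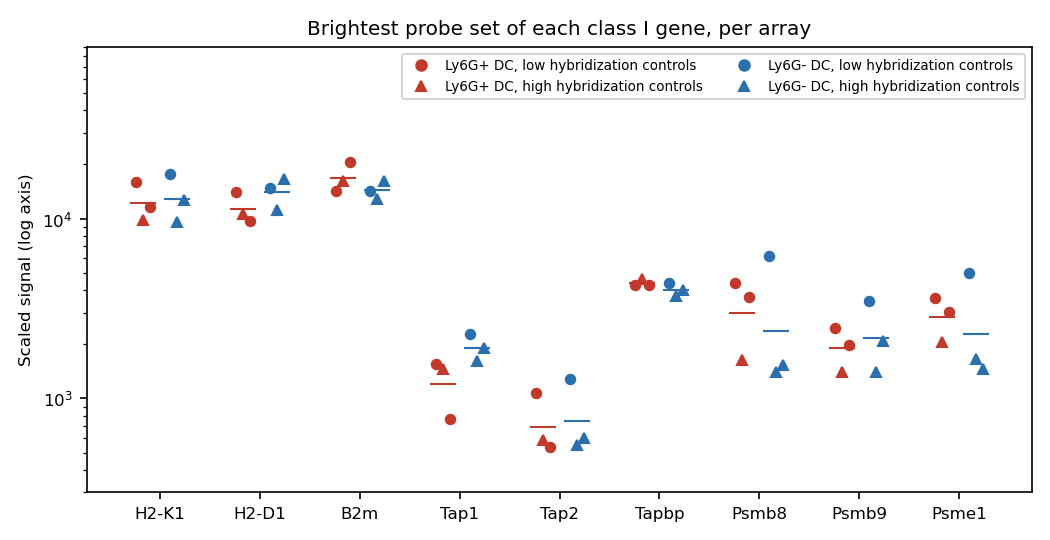
Scaled signal (log axis) of the brightest probe set of each of the 9 measured class I genes, with 3 Ly6G+ arrays to the left of 3 Ly6G- arrays; circles are low-control and triangles high-control arrays, and bars are geometric means. Groups overlap for every gene but Tap1, where the highest Ly6G+ value of 1562 lies just under the lowest Ly6G- value of 1605.

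The heavy chains, which hold the peptide and meet the T cell receptor, gave bright signals in both populations. H2-K1, the K locus product, had signals of 16059, 9762 and 11535 in Ly6G+ DC, while Ly6G- DC had 17587, 9601 and 12662 on its brightest probe set, 1425336_x_at. The groups overlapped throughout, and array number 2 was the lowest of each group. The log2 fold change was -0.08 ± 0.38 (SE), with a 95% interval of -0.93 to 0.77, and with the control side as a block -0.27 ± 0.24. H2-D1, the D locus product, had 13972, 10634 and 9739 in Ly6G+ DC, while Ly6G- DC had 14820, 11109 and 16656 on 1425545_x_at. Here Ly6G- DC 3 was the highest of the 6 arrays, and Ly6G+ DC 3 the lowest. Its log2 fold change was -0.31 ± 0.35, with an interval of -1.09 to 0.48.

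H2-K1 had 4 probe sets and H2-D1 had 9, of which 4 and 8 passed the filter. Their names show what they can tell apart: a name ending in _x_at marks a probe set with probes that also match other sequences, and 13 of the 26 member probe sets carried that ending. The class I heavy chains are close relatives of each other and of the non-classical Q and T genes, so these probe sets can share signal and their split between genes is uncertain. Log2 fold changes of the kept H2-D1 probe sets ran from -0.44 to 0.59, with 1427651_x_at the only positive one. That probe set was dim and erratic, with signals of 97.9, 233 and 53.1 in Ly6G+ DC, while Ly6G- DC had 74.8, 273 and 5.89. The probe set 1426324_at, whose name does not mark shared probes, had 2242, 488 and 526 in Ly6G+ DC, while Ly6G- DC had 2924, 669 and 743. Array number 1 was far above the others in each group, and the log2 fold change was -0.44 ± 0.67 (SE), or -0.96 ± 0.48 with the control side as a block.

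The other heavy chain probe sets are given in order of brightness. H2-K1 1451931_x_at had 13256, 8847 and 7950 in Ly6G+ DC, while Ly6G- DC had 14837, 8736 and 13469, a log2 fold change of -0.30 ± 0.37 (SE). H2-K1 1450534_x_at had 930, 736 and 821 in Ly6G+ DC, while Ly6G- DC had 1191, 749 and 1156, a log2 fold change of -0.29 ± 0.30. In both, Ly6G- DC 1 was the highest array and the groups overlapped. H2-D1 1451784_x_at had 14152, 9883 and 9071 in Ly6G+ DC, while Ly6G- DC had 15320, 8622 and 13222, and H2-D1 1451683_x_at had 5390, 2327 and 3395 in Ly6G+ DC, while Ly6G- DC had 6108, 2266 and 3461. Both had Ly6G- DC 1 highest and Ly6G- DC 2 lowest, with log2 fold changes of -0.15 ± 0.37 and -0.06 ± 0.44, or -0.27 ± 0.27 and -0.39 ± 0.27 with the block. The dim H2-D1 1450170_x_at had 242, 136 and 175 in Ly6G+ DC, while Ly6G- DC had 287, 115 and 271. H2-D1 1452544_x_at had 238, 138 and 140 in Ly6G+ DC, while Ly6G- DC had 271, 251 and 153. Their groups overlapped, with log2 fold changes of -0.20 ± 0.41 and -0.36 ± 0.37, or -0.40 ± 0.38 and -0.50 ± 0.36 with the block. H2-D1 1425614_x_at had 51.5, 27.9 and 38.5 in Ly6G+ DC, while Ly6G- DC had 48.6, 43.9 and 87.5, a log2 fold change of -0.44 ± 0.53. H2-D1 1451934_at had 58.2, 5.74 and 20.8 in Ly6G+ DC, while Ly6G- DC had 127, 40.5 and 19.8. It passed the percentile on 2 arrays and was not tested.

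B2m, the light chain that all class I heavy chains need to reach the surface, had a pair of probe sets that differed in how they followed the arrays. On 1449289_a_at the signals were 14186, 16155 and 20620 in Ly6G+ DC, while Ly6G- DC had 14322, 12924 and 16089. The groups overlapped, and Ly6G+ DC 3 was the highest. Its log2 fold change was 0.22 ± 0.35 (SE), with an interval of -0.56 to 1.0. On 1452428_a_at the signals were 19249, 5075 and 17247 in Ly6G+ DC, while Ly6G- DC had 19418, 3581 and 3781. The low-control arrays lay between 17247 and 19418 and the high-control arrays between 3581 and 5075, whatever the group. The log2 fold change was 0.89 ± 0.70 between groups that held 1 high-control array in Ly6G+ DC and 2 in Ly6G- DC. Without Ly6G- DC 1 it was 1.69 (limma adjusted p = 0.213). With the control side as a block it was 0.19 ± 0.23, close to the 0.21 ± 0.24 of the other probe set in the same fit.

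The TAP transporter brings peptides to the heavy chain, and tapasin helps them bind. Tap1, a subunit of the transporter, had signals of 1562, 1455 and 767 in Ly6G+ DC, while Ly6G- DC had 2291, 1605 and 1906 on 1416016_at. Every Ly6G+ array was below every Ly6G- array, the only kept member probe set of which this was true (1 of 22, where 7.24% of all were lower without overlap). The mean signal was 1261 ± 432 in Ly6G+ DC, against 1934 ± 344 in Ly6G- DC (SD, n = 3 arrays), and the log2 fold change was -0.66 ± 0.34 (SE; interval -1.43 to 0.10; limma adjusted p = 0.836). With the control side as a block it was -0.66 ± 0.32. Without Ly6G+ DC 3, its lowest array, it was -0.34, and with the common median -0.33. On the low-control arrays it was -1.05 and on the high-control arrays -0.26. The other 3 probe sets of Tap1 passed the percentile on at most 1 array, were not tested and say nothing firm of its level. Tap1 1449803_x_at had 4.34, 3.88 and 4.11 in Ly6G+ DC, while Ly6G- DC had 10.8, 130 and 7.15, and Tap1 1448177_at had 6.17, 2.69 and 6.32 in Ly6G+ DC, while Ly6G- DC had 9.21, 97.7 and 7.13. On both, Ly6G- DC 2 was the 1 bright array. Tap1 1420274_at had 14.2, 9.12 and 7.44 in Ly6G+ DC, while Ly6G- DC had 33.4, 2.43 and 43.0, all below the percentile.

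Tap2, the partner subunit, had 1069, 590 and 534 in Ly6G+ DC, while Ly6G- DC had 1274, 547 and 601. Array number 1 was the highest of each group and the other arrays lay together. The log2 fold change was -0.10 ± 0.40 (SE), with an interval of -1.0 to 0.79, and -0.35 ± 0.33 with the control side as a block. Tapbp, which encodes tapasin, was the steadiest member, with 4266, 4605 and 4277 in Ly6G+ DC, while Ly6G- DC had 4367, 3702 and 3991 on 1421812_at. Its highest array was 1.24 times its lowest, against a median of 2.60 over the 22 member probe sets and 3.01 over all kept probe sets. The log2 fold change was 0.13 ± 0.28, with an interval of -0.51 to 0.76. The second probe set of Tapbp, 1450378_at, had 1284, 366 and 387 in Ly6G+ DC, while Ly6G- DC had 1355, 255 and 301, and array number 1 stood apart in each group. It gave 0.26 ± 0.65, and -0.27 ± 0.46 with the control side as a block.

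The inducible catalytic subunits take the place of constitutive ones in the immunoproteasome. Psmb8 had signals of 4396, 1631 and 3649 in Ly6G+ DC, while Ly6G- DC had 6170, 1402 and 1532 on 1422962_a_at. The 3 high-control arrays were the 3 lowest. The log2 fold change was 0.32 ± 0.58 (SE), and with the control side as a block -0.23 ± 0.25. The second probe set, 1444619_x_at, ran the other way, with 243, 944 and 531 in Ly6G+ DC, while Ly6G- DC had 235, 892 and 1072. There the high-control arrays were the 3 highest, and the log2 fold change was -0.29 ± 0.60, or 0.27 ± 0.34 with the block. Psmb9 had 2472, 1398 and 1978 in Ly6G+ DC, while Ly6G- DC had 3483, 1401 and 2082. The groups overlapped, with Ly6G- DC 1 the highest array, and the log2 fold change was -0.19 ± 0.39, with an interval of -1.05 to 0.67, and -0.47 ± 0.26 with the block. Tap1, whose start shares with that of Psmb9 the interval printed above, had -0.66 in either fit, and the difference between the genes was not tested.

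Psme1, the alpha chain of the PA28 activator, opens the gate of the proteasome core. It had 3598, 2058 and 3022 in Ly6G+ DC, while Ly6G- DC had 4958, 1656 and 1464. Again the 3 high-control arrays were the lowest. The log2 fold change was 0.30 ± 0.46 (SE) with an interval of -0.74 to 1.33, and -0.09 ± 0.27 with the control side as a block.

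**Figure D2:**
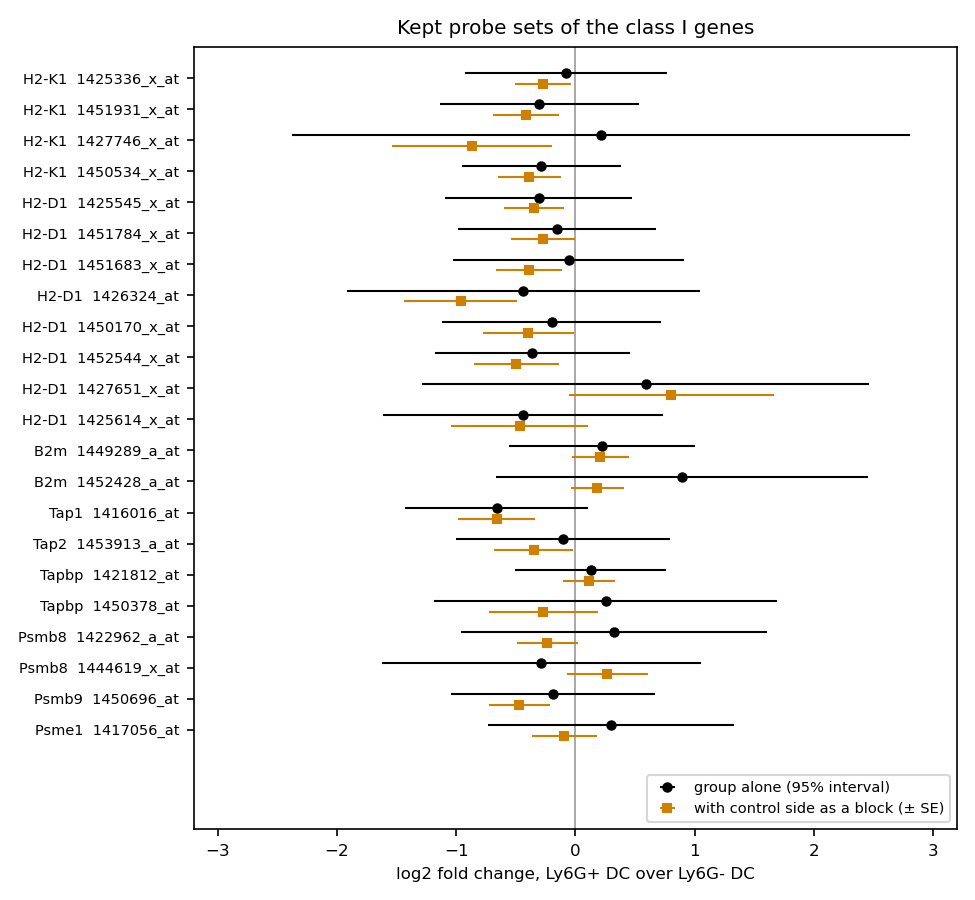
Log2 fold change of Ly6G+ DC over Ly6G- DC for the 22 kept class I probe sets, from the group alone with 95% intervals (black circles) and with the control side as a block with SE (orange squares). All 22 black intervals cross 0, and the squares of H2-K1 1427746_x_at, B2m 1452428_a_at and Psmb8 lie well apart from their circles.

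The difference between high-control and low-control arrays, taken in a fit that also held the group, was larger for several members than the difference of any member between the sorted populations. Of the 22 probe sets, 4 were lower on the high-control arrays at an adjusted p under 0.05 by limma and 1 was higher, against 2.37% and 2.54% of all probe sets. The 4 were H2-K1 1427746_x_at with a log2 difference of -3.24 ± 0.67, B2m 1452428_a_at with -2.12 ± 0.23, Psmb8 1422962_a_at with -1.67 ± 0.25 and Psme1 with -1.17 ± 0.27 (SE). The 1 higher was Psmb8 1444619_x_at with 1.67 ± 0.34. In all, 19 of 22 were negative, against 44.8% of all kept probe sets. The median was -0.49 for the members and 0.08 over all. By the brightest probe set of each gene, 8 of 9 were negative, with a median of -0.58. The share whose control side difference exceeded their group difference was 13 of 22, beside 61.5% of all, so in that respect the members stood near the background.

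Probe sets of a single gene did not share this difference. Beside B2m at -2.12 stood B2m 1449289_a_at at -0.04, beside Tapbp 1450378_at at -1.57 stood Tapbp 1421812_at at -0.04, and the pair for Psmb8 had opposite signs. H2-K1 1427746_x_at had signals of 10060, 666 and 1236 in Ly6G+ DC, while Ly6G- DC had 11765, 551 and 808. Both arrays numbered 1 lay far above the others, and its highest array was 21.4 times its lowest, while that ratio was 1.83 for the brightest H2-K1 probe set. Its log2 fold change between the populations was 0.22 ± 1.17, or -0.87 ± 0.67 with the control side as a block. Arrays numbered 1 carry another array name in the titles than the other 4. Among genes with several kept probe sets, log2 fold changes between the populations differed in sign within H2-K1, H2-D1 and Psmb8, and had the same sign within B2m and Tapbp. The part of RNA length, hybridization and array name in these values was not tested.

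**Figure D3:**
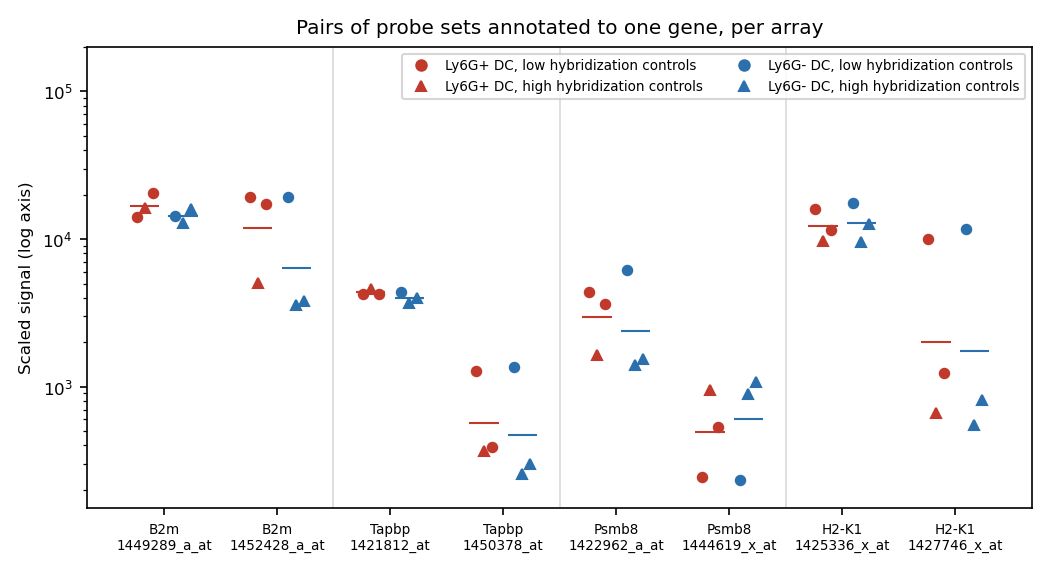
Scaled signal (log axis) per array for pairs of probe sets annotated to B2m, Tapbp, Psmb8 and H2-K1, with Ly6G+ arrays left of Ly6G- arrays; circles are low-control arrays, triangles high-control arrays and bars geometric means. The left probe sets of B2m and Tapbp are level across arrays. The right one of B2m splits them by control side, and the pair for Psmb8 does so in opposite directions. On the right one of Tapbp only the arrays numbered 1 stand apart, and the low-control array Ly6G+ DC 3 lies near the high-control arrays.

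The swap between constitutive and inducible subunits was examined as a difference of log2(signal + 16) within each array, which moves little with the array's scale. Psmb8 over Psmb5, the constitutive subunit it replaces, had log2 ratios of 1.31, 0.32 and 1.01 in Ly6G+ DC, while Ly6G- DC had 1.69, 0.55 and 0.63. Psmb9 over Psmb6 had 0.61, -0.04 and -0.05 in Ly6G+ DC, while Ly6G- DC had 1.34, -0.21 and 0.74. Psmb10 over Psmb7 had -1.17, 1.25 and 1.98 in Ly6G+ DC, while Ly6G- DC had -1.21, 0.80 and 0.70, so the arrays numbered 1 stood apart from all others. The groups overlapped in each ratio. Within the low-control arrays the differences of Ly6G+ minus Ly6G- were -0.53, -1.06 and 1.61 in the order given, and within the high-control arrays -0.27, -0.30 and 0.50, each with 1 array of a group against 2 of the other and no test. Over all arrays they were -0.08, -0.45 and 0.59, with p = 0.9, 0.6 and 0.5 by exact permutation, two-sided (each 0.9 adjusted over the 3 ratios), where 0.1 is the smallest p that 3 arrays against 3 allow. Only the difference between groups is read from these ratios, since signals of different probe sets are not comparable as levels. Psmb7 itself had 3031, 341 and 260 in Ly6G+ DC, while Ly6G- DC had 3344, 533 and 595.

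The rest of the class I pathway was followed in 7 lists of 63 genes, of which 48 had a probe set of their own and 47 a kept one. Of their 93 kept probe sets, 0 passed the test in either direction, and 2 had an unadjusted p under 0.05 by limma, both higher in Ly6G+ DC, against 5.62% of all probe sets in either direction. The 2 are named only to account for that count. They were Psma1, a structural subunit of the proteasome core, with 2316, 2333 and 4037 in Ly6G+ DC, while Ly6G- DC had 2030, 1457 and 1464, and a probe set of Jak1, a kinase bound to the interferon receptors. Psma1 had a log2 fold change of 0.77 ± 0.33 (SE) without overlap, and the other kept probe set of the gene had -0.11 ± 0.35. Psma1 1436769_at and 1436770_x_at were also higher without overlap, but they were dim, passed the percentile on 2 arrays each and were not tested. Jak1 had 0.81 ± 0.36 on 1433805_at and -0.01 and -0.09 on its other probe sets. Neither gene was taken by the naming rule, and both were chosen after their values were seen.

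Each list was read by its median log2 fold change, beside -0.06 for all probe sets. Peptide loading and trimming had -0.17 over 12 probe sets, with Canx, the chaperone calnexin, at -0.09 ± 0.36 and Sec61b, part of the channel of the endoplasmic reticulum, at -0.23 ± 0.37 (SE). Class I transcription and interferon signalling had -0.10 over 18, with Jak2 at -0.61 ± 0.33 and Rela, a subunit of NF-kB, at -0.43 ± 0.32. The other kept probe set of Jak2 had 0.07 ± 0.53, and those of Canx had 0.68 and -0.17. The other 20S core subunits had 0.16 over 22, with Psma5 at -0.14 ± 0.39 and Psma6 at -0.22 ± 0.42. The other kept probe sets of Psma6 ran from -0.51 to 0.39, and that of Psma5 had -0.22. Psmb10, which is also inducible, had -0.05 ± 0.31, and the constitutive subunits Psmb5, Psmb6 and Psmb7 had 0.40 ± 0.34, 0.26 ± 0.29 and -0.64 ± 0.91.

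The non-classical and class I like molecules had the highest median of the 7 lists, 0.33 over 8 probe sets, of which 7 were positive where 45.0% of all were. Their brightest genes were Cd1d1, which presents lipids, at 0.32 ± 0.49 (0.34 on its other probe set), and H2-M3, which presents formylated peptides, at -0.11 ± 0.30 (SE). Only 7 of the 18 listed genes had a probe set of their own, and the 8 kept probe sets came from 6 genes. Those of H2-Q10, H2-T24 and H2-T3 were dim, at 5.66 to 192, and passed the percentile on 4 arrays each. Cross-presentation factors had 0.05 over 21 probe sets, with Derl1, a channel component for export from the endoplasmic reticulum, at -0.13 ± 0.48 and Sec61a1 at -0.58 ± 0.36. The other kept probe sets ran from 0.05 to 0.49 for Derl1 and from -0.40 to 0.12 for Sec61a1. The other proteasome activators had -0.03 over 8, with Psme3, the activator of the nucleus, at 0.31 ± 0.36 and Psme4 at -0.02 ± 0.34. Their other kept probe sets had -0.34 and -0.04 for Psme3 and ran from -0.61 to 0.79 for Psme4.

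**Figure D4:**
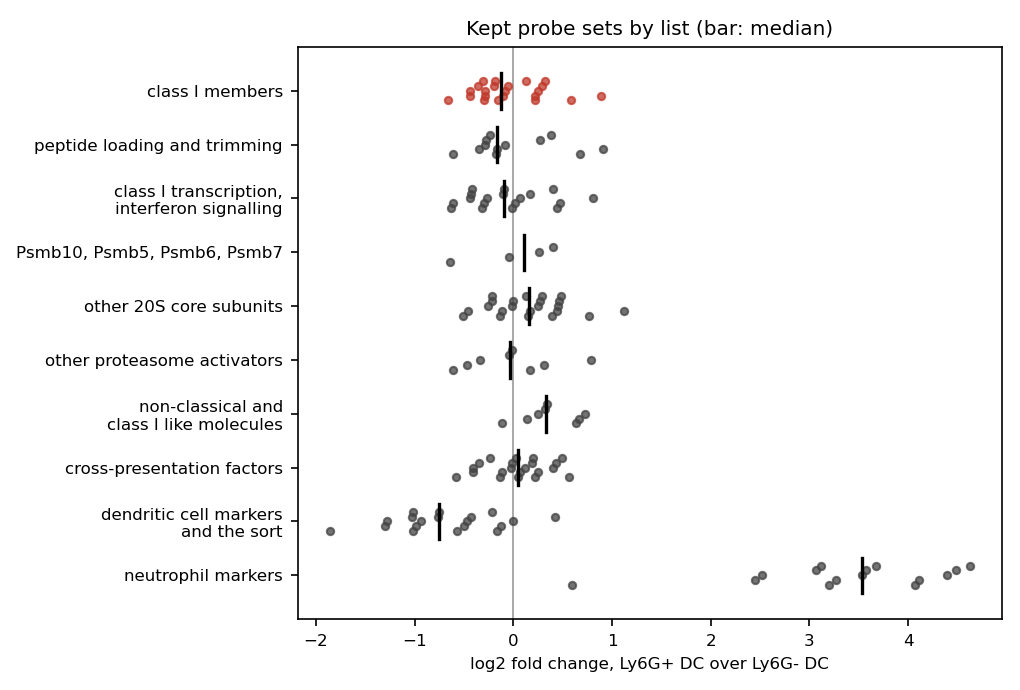
Log2 fold change of Ly6G+ DC over Ly6G- DC for every kept probe set (points) of the class I members, the 7 other class I pathway lists and 2 marker lists, with the median of each as a bar. The members lie between -0.66 and 0.89 around a median of -0.13, while dendritic cell markers centre on -0.75 and neutrophil markers on 3.53.

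Over the 6 arrays, the mean of the brightest probe set of the 9 genes was most closely followed by Akap8l, Cxcl16, Snd1, Ppp3r1 and Rgs10, with Pearson's r of 0.997, 0.992, 0.991, 0.990 and 0.990 among 13253 other genes. Cxcl16, a chemokine, had signals of 5136, 2118 and 2847 in Ly6G+ DC, while Ly6G- DC had 7349, 2070 and 3053. Arrays numbered 1 were highest in each group. These correlations are descriptions of 6 points that share control side and array name.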

How the data were processed

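The authors deposited 1 linear intensity for each probe set and array, scaled so that each array had a mean of 250.0 after trimming 2% at either end. Affymetrix Expression Console 2.0, MAS5 and GCOS are named, per the submitters' processing notes, and other settings are not given in the sources used here. Since MAS5 takes mismatch probes off the signal, dim values are noisy. Probe sets were named through the platform annotation, where 34958 of 45101 had 1 symbol, 932 several and 9211 none. The 64 control probe sets were left out of the test. The log2(signal + 16) values that passed the 40th percentile on at least 3 of 6 arrays were tested with limma 3.58.1 in R 4.3.3 (group alone, intensity trend, Benjamini-Hochberg over all kept probe sets), and the fit was tested on simulated data. The number of arrays limits the precision. Members and lists were chosen with earlier results of these data known. The naming rule took all member probe sets and, per other list, the members past the threshold or else the 2 brightest, each gene by its brightest probe set, both subunits of each ratio, and the 5 genes closest to the member mean. The control side splits the arrays where their hybridization controls, averaged on the log2 scale, lay farthest apart. Alternatives were quantile normalization, pseudocounts of 1 and 64, a common median, a 60th percentile filter or none, no trend, robust variance, blocks for replicate number, control side and array name, 1 probe set per gene, and each array left out. No 2 arrays held identical values. A further motif that was searched is not reported here.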

Additional observations from a re-analysis of the deposited data

How the results depend on the processing

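No class I member probe set and no probe set of the other class I lists passed the threshold under any of the alternatives run (391 recomputed member values, smallest adjusted p = 0.213, for B2m 1452428_a_at without Ly6G- DC 1). Over all probe sets the count of 0 became 19 with the replicate block and 21 with the array name block, and ranged from 0 to 1 with 1 array left out. The titles number both groups 1 to 3 but do not call the numbers pairs, and the main fit did not pair them. Deviations from the group means correlated at 0.52, 0.26 and -0.04 for numbers 1, 2 and 3. Ly6G+ DC 2 correlated best with Ly6G- DC 3, and both are high-control arrays. Number 3 has a low-control array in Ly6G+ DC and a high-control array in Ly6G- DC. These correlations therefore cannot decide whether the numbers are pairs. Counts at an unadjusted p under 0.05 were 1589 as reported, 2954 with the replicate block, 2980 with the array name block, 2630 with no filter, 944 with the 60th percentile filter, and 544 (without Ly6G+ DC 3) to 3755 (without Ly6G- DC 1) with 1 array left out; without Ly6G- DC 3 there were 747. Member probe sets among them were 3 of 22 without Ly6G- DC 1, where all probe sets had 3755 of 26645. With the replicate block they were 2 of 22, against 2954 of 28254. With the array name block they were 1 of 22, against 2980 of 28254, and with both blocks 1 of 22, against 1787 of 28254. In none of these was the member share above that of all probe sets. The member median ranged from -0.37 to 0.17 with 1 array left out. Log2 fold changes, none past the threshold, changed sign as follows, and apart from the common shift of the median scaling the cause was not tested. With the common median, H2-K1 1425336_x_at, 1451931_x_at and 1450534_x_at had 0.25, 0.030 and 0.039. H2-D1 1425545_x_at, 1451784_x_at, 1451683_x_at and 1450170_x_at had 0.024, 0.18, 0.27 and 0.11, and Tap2, Psmb8 1444619_x_at and Psmb9 had 0.22, 0.034 and 0.14. With the control side block, H2-K1 1427746_x_at, Tapbp 1450378_at, Psmb8 1422962_a_at, Psmb8 1444619_x_at and Psme1 had -0.87, -0.27, -0.23, 0.27 and -0.094. With both blocks, H2-K1 1427746_x_at and Psmb8 1422962_a_at had -0.10 and -0.12. With 1 array left out, values ranged from -0.29 to 0.14 for H2-K1 1425336_x_at, from -0.93 to 1.58 for 1427746_x_at, from -0.40 to 0.32 for H2-D1 1451683_x_at, from -0.39 to 0.020 for 1451784_x_at, from -1.14 to 0.24 for 1426324_at, from -0.59 to 0.016 for 1450170_x_at and from -0.37 to 1.49 for 1427651_x_at. They ranged from -0.41 to 0.27 for Tap2, from -0.32 to 0.996 for Tapbp 1450378_at, from -0.052 to 1.01 for Psmb8 1422962_a_at, from -0.95 to 0.21 for Psmb8 1444619_x_at, from -0.50 to 0.15 for Psmb9 and from -0.025 to 0.85 for Psme1. The ratio differences ranged from -0.29 to 0.29 for Psmb8 over Psmb5, from -0.87 (without Ly6G- DC 2) to -0.091 (without Ly6G- DC 1) for Psmb9 over Psmb6 and from -0.062 to 1.52 for Psmb10 over Psmb7.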
